A study of Mus musculus with 12 samples.

Results

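Genes of the transcriptional control of lipid synthesis were followed across the 4 groups of a 3T3-L1 adipogenesis experiment. The members were the 9 genes whose symbols name the sterol regulatory element-binding proteins (Srebf1 and Srebf2), their escort and retention proteins (Scap, Insig1 and Insig2), the carbohydrate response element-binding protein ChREBP and its partner (Mlxipl and Mlx), and the liver X receptors (Nr1h3 and Nr1h2). They were taken by gene symbol from a table of 54532 genes, by a rule that uses no measured value. All 9 passed the filter on low counts, which kept 14855 genes.

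SREBPs are made as membrane-bound precursors in the endoplasmic reticulum. SCAP carries them to the Golgi for cleavage when sterols are low, and the INSIG proteins hold SCAP back when sterols are high. The freed fragments enter the nucleus, where the SREBP-2 encoded by Srebf2 mainly drives cholesterol synthesis and uptake genes and the SREBP-1c form encoded by Srebf1 mainly drives fatty acid synthesis genes. ChREBP binds DNA with MLX and responds to glucose metabolites, and the liver X receptors bind oxysterols and, with retinoid X receptors, activate cholesterol efflux genes and Srebf1 itself. In fat tissue these routes contribute to the supply of fatty acids for storage.

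3T3-L1 is a mouse fibroblast-like line, labelled wild type, that can be turned into adipocytes in culture. The 12 RNA sequencing libraries, all of day 6, were 3 untreated, 3 given the adipogenic cocktail DMI (0.5 mM IBMX, a phosphodiesterase inhibitor; 1 uM dexamethasone, a glucocorticoid; 10 ug/ml insulin), 3 given DMI with luteolin and 3 given DMI with quercetin. Luteolin is a flavone and quercetin the flavonol that carries an added hydroxyl group on the central ring. Their doses and exposure times are not in the labels, and whether the doses match is unknown, so the values of the compounds are only set beside each other. No label ties a replicate to a culture of its own, and the p-values below therefore describe the spread among libraries, which may be technical. The protocol text is identical for all samples, so the untreated cells are known from their titles and treatment label.

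Library totals lay between 14522182 and 19436796 counts. The summed level of 6 mature adipocyte markers (Adipoq, Fabp4, Plin1, Cidec, Retn and Cfd) was 1.55 to 15.3 CPM (counts per 1e6 counts of the library, after TMM scaling) in untreated cells, 2623 to 11906 with DMI, 2048 to 5825 with luteolin and 560.2 to 3070 with quercetin. The summed level of 6 preadipocyte and fibroblast markers (Dlk1, Pdgfra, Thy1, Ly6a, Cd34 and Col1a1) went from 23151 to 23926 CPM in untreated cells to 8721 to 14324 with DMI, 6719 to 10156 with luteolin and 9350 to 12251 with quercetin. This sum mainly follows Col1a1 (5052 to 16634 CPM over the 12 libraries) and Dlk1 (995 to 6904). Pdgfra ranged only from 577 to 821 CPM, and Thy1, Ly6a and Cd34 reached at most 108 CPM. Muscle-defining Myod1, Myog and Ckm and the macrophage marker Adgre1 had 0 counts in every library, while Des, the remaining muscle marker, was at 1.27 to 2.24 CPM in untreated cells, 8.43 to 25.9 with DMI, 5.52 to 14.1 with luteolin and 3.19 to 10.7 with quercetin. In each induced group the third library had the lowest adipocyte marker sum, so counts of calls are also given without the third library of all 3 induced groups. Fewer adipocytes and less RNA per adipocyte cannot be told apart in such bulk samples, and the part of the adipocyte share in the differences below was not tested.

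The first comparison, DMI against untreated, shows how the regulators stood once cells had been induced. Nr1h3, Mlxipl, Srebf1, Insig1 and Mlx rose, while Srebf2, Nr1h2, Scap and Insig2 did not pass the test. Differences within the pairs Srebf1 and Srebf2, Nr1h3 and Nr1h2, and Insig1 and Insig2 are given below as ratios. Of the 9 members 5 were called higher and 0 lower by edgeR's quasi-likelihood test at an adjusted p below 0.05, against 14.7% of all 14855 genes called higher and 12.4% called lower. The median log2 fold change of the members was 0.87, and that of all tested genes was -0.04. Libraries of the 2 groups did not overlap for 5 members that were higher (22.7% of all genes) and 2 that were lower (29.4% of all genes). Without the third induced libraries 8 members were called, 6 higher and 2 lower, where 52.8% of all genes were called in either direction.

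**Figure D1:**
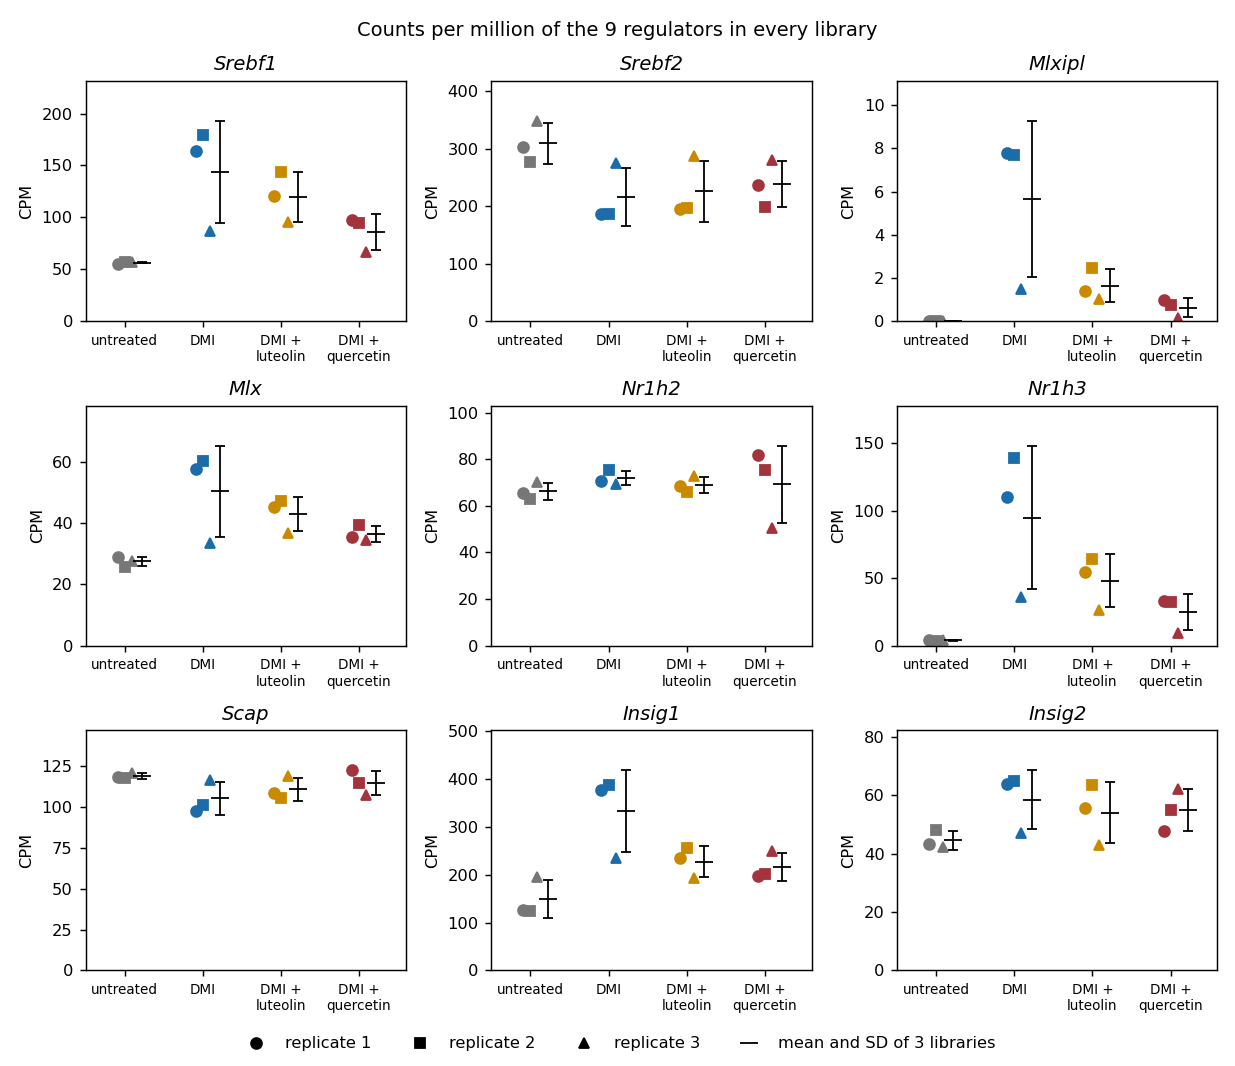
CPM (vertical axis, from 0) of each of the 9 regulators in the 4 groups; points are single libraries, the horizontal mark and bars are the mean and SD of 3 libraries. Nr1h3 runs from 3.64 to 4.10 CPM in untreated cells and from 35.8 to 138.8 CPM with DMI, and Nr1h2 overlaps in all 4 groups.

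Insig1 encodes the INSIG protein that is itself a target of SREBP, which closes a feedback loop. It lies on the forward strand of chromosome 5 at chr5:28071363-28078662 (GRCm38, ENSMUSG00000045294). Its RefSeq promoter window, 250 bases before to 50 after the annotated start, is shown because Insig1 is the most abundant of the 9 genes per length and the window holds an E-box, the core motif that SREBP and ChREBP-MLX can bind. Capitals mark the E-box (CACGTG, at -101 with the start as position 0) and an NF-Y box (CCAAT or its reverse complement, at -216).
Insig1, chr5:28071162-28071461, forward strand: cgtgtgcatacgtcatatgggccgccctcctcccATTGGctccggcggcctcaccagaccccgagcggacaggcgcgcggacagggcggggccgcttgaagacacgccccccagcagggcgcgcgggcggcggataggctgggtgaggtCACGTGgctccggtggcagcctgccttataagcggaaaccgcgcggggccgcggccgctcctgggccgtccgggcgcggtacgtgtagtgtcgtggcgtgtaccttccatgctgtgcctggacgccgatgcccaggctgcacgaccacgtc

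Insig1 stood at 127, 125 and 195 CPM in untreated libraries, 377, 387 and 234 with DMI, 234, 256 and 193 with luteolin, and 198, 202 and 250 with quercetin. The third untreated library was the highest of its group and the third DMI library the lowest of its own, and the DMI libraries all lay above the untreated ones. With DMI Insig1 rose 2.24-fold, by 1.16 ± 0.22 on the log2 scale (SE; 3 libraries per group), with an adjusted p of 0.00325 by edgeR. Insig2 encodes the second INSIG protein, whose gene (chr1:121304353-121332589, reverse strand) is not driven by SREBP. It stood at 43.3, 48.3 and 42.1 CPM in untreated libraries, 63.8, 64.7 and 46.9 with DMI, 55.7, 63.6 and 43.0 with luteolin, and 47.8, 55.0 and 62.3 with quercetin. Its DMI libraries overlapped the untreated ones through the third, and the log2 fold change of 0.39 (SE 0.17) had an adjusted p of 0.109 by edgeR, or 0.0256 without the third DMI library (0.00013 to 0.319 over all alternatives). Insig2 was also called by edgeR in the 6 libraries of the pair alone (adjusted p = 0.0412, and 0.0413 with the replicate block), and without the third quercetin library (adjusted p = 0.0419). In the authors' deposited table its adjusted p is 0.0348.

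Scap, the escort that carries both SREBP precursors out of the endoplasmic reticulum (chr9:110333288-110384950, forward strand), had the narrowest range of the 9 over the 12 libraries, relative to its level. It was at 118, 117 and 121 CPM in untreated libraries, 97.7, 101 and 116 with DMI, 108, 105 and 119 with luteolin, and 122, 114 and 107 with quercetin. The DMI libraries lay just below the untreated ones without overlap, by a log2 fold change of -0.18 (SE 0.11, 95% interval -0.41 to 0.06, adjusted p = 0.262 by edgeR). Without the third induced libraries Scap was called lower, at -0.22 (adjusted p = 0.0230 by edgeR), where 52.8% of all genes were called. Over all alternatives its adjusted p ran from 0.0230 to 0.753.

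Srebf1 (chr11:60199089-60222581, reverse strand, ENSMUSG00000020538) gives rise to SREBP-1a and SREBP-1c from separate starts, which counts per gene do not separate. It stood at 55.4, 56.5 and 56.6 CPM in untreated libraries, 164, 179 and 87.2 with DMI, 120, 144 and 95.2 with luteolin, and 97.3, 94.5 and 66.3 with quercetin. Every induced library lay above every untreated one, and the third was lowest in each induced group. With DMI Srebf1 rose 2.55-fold, by 1.35 ± 0.25 on the log2 scale (SE), with an adjusted p of 0.00237 by edgeR. Srebf2 (chr15:82147181-82205379, forward strand) stood at 304, 277 and 349 CPM in untreated libraries, 186, 187 and 275 with DMI, 194, 196 and 287 with luteolin, and 237, 199 and 281 with quercetin. Here the third library was the highest of every group, and the DMI libraries lay below the untreated ones. The log2 fold change of Srebf2 was -0.52 (SE 0.20, adjusted p = 0.0771 by edgeR), and it passed without the third DMI library (adjusted p = 0.0119; 5.07e-05 to 0.298 over all alternatives).

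Mlxipl encodes ChREBP (chr5:135089890-135138382, forward strand, ENSMUSG00000005373). It has separate annotated starts, of which the upstream one is known to give the shorter ChREBP-beta, and counts per gene do not separate the forms. Both RefSeq promoter windows are shown with that of Mlx, its dimer partner (chr11:101087277-101092207, forward strand), since both genes rose. Capitals mark E-boxes (CACGTG, at -98 in the upstream Mlxipl window and at -40 in Mlx), NF-Y boxes, and in the downstream Mlxipl window a match at -136 to the sterol regulatory element TCACNCCAC.
Mlxipl upstream start, chr5:135089640-135089939, forward strand: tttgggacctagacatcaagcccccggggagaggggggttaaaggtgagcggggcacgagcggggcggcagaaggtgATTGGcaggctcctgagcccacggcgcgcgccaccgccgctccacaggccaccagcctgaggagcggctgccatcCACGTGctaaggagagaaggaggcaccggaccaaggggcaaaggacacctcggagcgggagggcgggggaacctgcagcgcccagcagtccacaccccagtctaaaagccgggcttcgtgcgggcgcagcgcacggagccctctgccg
Mlxipl downstream start, chr5:135106641-135106940, forward strand: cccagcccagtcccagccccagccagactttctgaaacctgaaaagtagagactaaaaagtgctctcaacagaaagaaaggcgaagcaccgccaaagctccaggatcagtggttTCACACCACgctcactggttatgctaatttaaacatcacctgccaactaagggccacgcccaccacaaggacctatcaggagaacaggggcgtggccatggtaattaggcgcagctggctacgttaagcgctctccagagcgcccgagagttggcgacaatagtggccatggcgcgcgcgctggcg
Mlx, chr11:101087040-101087339, forward strand: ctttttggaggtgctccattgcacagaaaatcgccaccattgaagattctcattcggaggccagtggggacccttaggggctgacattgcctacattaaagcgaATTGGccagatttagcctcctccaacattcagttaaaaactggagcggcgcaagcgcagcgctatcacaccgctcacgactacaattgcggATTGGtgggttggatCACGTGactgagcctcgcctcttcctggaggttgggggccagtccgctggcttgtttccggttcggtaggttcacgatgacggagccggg

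Mlxipl had 0 counts in all 3 untreated libraries. It had 124, 112 and 24 counts with DMI (7.80, 7.67 and 1.48 CPM), 24, 42 and 15 with luteolin (1.40, 2.48 and 0.998 CPM), and 18, 15 and 2 with quercetin (0.982, 0.758 and 0.123 CPM). The first and second DMI libraries were far above all others, and the third DMI library lay within the luteolin range. Set against a floor of 3 counts over the untreated group, Mlxipl was at least 93.1-fold higher with DMI (adjusted p = 0.00112 by edgeR). Mlx stood at 29.0, 25.8 and 27.7 CPM in untreated libraries, 57.8, 60.2 and 33.4 with DMI, 45.3, 47.3 and 36.8 with luteolin, and 35.5, 39.5 and 34.5 with quercetin. All induced libraries were above all untreated ones, and Mlx rose 1.83-fold with DMI, by 0.87 ± 0.19 on the log2 scale (SE), with an adjusted p of 0.00668 by edgeR.

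Nr1h3, on the reverse strand of chromosome 2 (chr2:91184061-91202834, ENSMUSG00000002108), encodes LXR-alpha, the receptor enriched in liver, macrophages and fat. It stood at 4.10, 3.64 and 3.87 CPM in untreated libraries, 110, 139 and 35.8 with DMI, 54.3, 64.0 and 26.2 with luteolin, and 32.9, 32.7 and 9.63 with quercetin. The lowest induced library, the third with quercetin, was still above every untreated one, and the third was lowest in each induced group. The rise with DMI had a log2 fold change of 4.61 (SE 0.59, 95% interval 3.33 to 5.89, adjusted p = 0.00034 by edgeR). Nr1h2 encodes LXR-beta, the receptor made in most tissues (chr7:44549616-44553951, reverse strand). It was at 65.6, 63.0 and 70.3 CPM in untreated libraries, 70.8, 75.4 and 69.5 with DMI, 68.4, 66.0 and 72.8 with luteolin, and 81.8, 75.4 and 50.4 with quercetin. All 4 groups overlapped, with the third quercetin library lowest of the 12, and the log2 fold change with DMI was 0.12 (SE 0.15, 95% interval -0.22 to 0.45, adjusted p = 0.617 by edgeR).

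Across the 16 RefSeq promoter windows of the 9 members, the E-box CACGTG was present in 5 windows of 4 members (Mlxipl, Mlx, Insig1 and Scap). It was present in 7.15% of 32851 windows of the same length. NF-Y boxes, CCAAT on either strand, were found in 7 of the 16 windows (6 members) and in 37.4% of all windows, and Insig2, which was not called, held 3 of them. The GC box GGGCGG was found in 9 of the 16 windows (6 members) and in 35.7% of all windows. The sterol regulatory element TCACNCCAC matched the downstream Mlxipl window alone among the members (1.24% of all windows), and the LXR direct repeat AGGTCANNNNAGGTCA matched none (0.0152% of all windows). Scap, with 1 E-box that its overlapping windows share, was not called, and Nr1h3 rose with none of these motifs in its windows. No match overlapped one of another motif in the windows of the members. All motifs were searched on both strands, and a match describes letters in a window, not a site of binding.

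**Figure D2:**
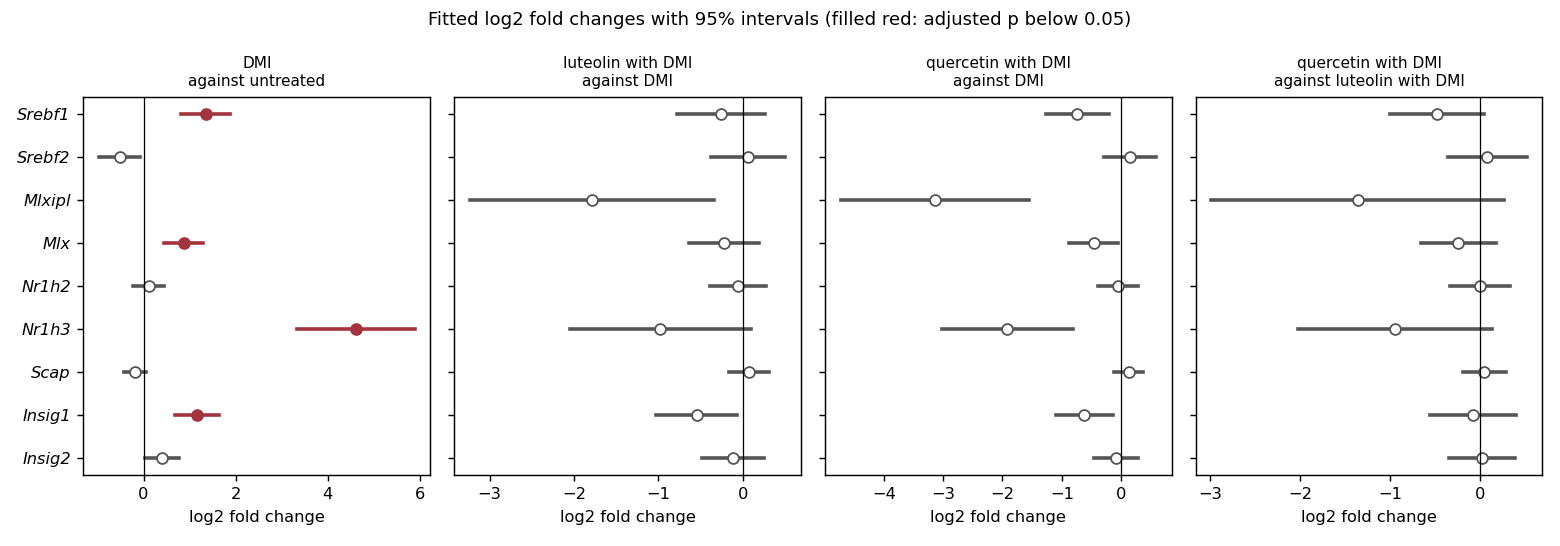
Fitted log2 fold changes (horizontal axis) of the regulators in 4 comparisons, as points with 95% intervals; filled red marks an adjusted p below 0.05, and Mlxipl is left out of the DMI against untreated panel because its untreated libraries had 0 counts. Of the 4 panels only the first has red points, and the points of Mlxipl and Nr1h3 lie farthest to the left in the quercetin panel, at -3.14 and -1.92.

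The second comparison sets luteolin with DMI against DMI alone. Mlxipl, Nr1h3 and Insig1 were the members farthest below their DMI levels, at 28.7%, 50.8% and 68.4% of the DMI mean, while Srebf2, Nr1h2, Scap and Insig2 stood between 92.5% and 105.3%. No member passed the test. By edgeR 0 of 9 members were called, where 0.0202% of all genes were, and 2 members (Mlxipl and Insig1) had an unadjusted p below 0.05, where 6.09% of all genes had one. DESeq2 also called 0 of 9 (0.333% of all genes). The log2 fold change was below 0 for 7 of 9 members and for 53.2% of all genes, and the median over members was -0.23 against -0.02 over all genes.

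Mlxipl averaged 1.62 ± 0.77 CPM with luteolin (SD, n = 3) against 5.65 ± 3.61 with DMI, a log2 fold change of -1.79 (95% interval -3.23 to -0.34, adjusted p = 0.731 by edgeR). For Insig1 the means were 228 ± 32.4 and 333 ± 85.5 CPM, a log2 fold change of -0.55 (95% interval -1.03 to -0.07, adjusted p = 0.751 by edgeR). The first luteolin library of Insig1 was level with the lowest DMI library, the third lay below it and the second above it. Nr1h3 averaged 48.2 ± 19.7 CPM against 94.8 ± 53.1, a log2 fold change of -0.98 (95% interval -2.04 to 0.09, adjusted p = 0.847 by edgeR). Srebf1, at 120 ± 24.2 CPM against 143 ± 49.3, had a log2 fold change of -0.26 (95% interval -0.78 to 0.26). In each of these 4 genes the spread among DMI libraries, of which the third was the lowest, was wider than that among luteolin libraries. Without the third induced libraries 5 members were called lower (Mlxipl, Nr1h3, Insig1, Srebf1 and Mlx), where 10.4% of all genes were called. With the replicate number as a block in a fit of these 6 libraries alone, Mlxipl (adjusted p = 0.0156), Nr1h3 (adjusted p = 0.00262) and Insig1 (adjusted p = 0.00768) were called lower by edgeR, where 6.58% of all genes were called, and with the block over all 12 libraries no member was (0.168% of all genes). Over all alternatives the adjusted p in luteolin against DMI ran from 8.54e-05 to 0.999965 for Nr1h3, from 0.00183 to 0.999965 for Mlxipl and from 0.00768 to 0.999965 for Insig1. The lowest value of Mlxipl came from the fit with no filter, where 363 of 29036 genes were called.

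The third comparison puts quercetin with DMI against DMI. Mlxipl and Nr1h3 had the lowest values again, at 11.0% and 26.4% of the DMI mean, followed by Srebf1 at 60.0%, Insig1 at 65.1% and Mlx at 72.4%. Srebf2, Nr1h2, Scap and Insig2 stood between 94.1% and 110.7%. By edgeR 0 of 9 members passed, where 1.01% of all genes did, and 5 members had an unadjusted p below 0.05, where 21.3% of all genes had one. The log2 fold change was below 0 for 7 of 9 members and for 48.4% of all genes. DESeq2 called 3 of 9 lower, where it called 6.40% of all genes: Mlxipl (adjusted p = 0.000759), Nr1h3 (adjusted p = 0.0256) and Srebf1 (adjusted p = 0.04996). The same 3 genes were called lower by edgeR with the replicate number as a block over all 12 libraries, where 9.39% of all genes were called, although same-numbered quercetin and DMI libraries did not all deviate together.

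All 3 quercetin libraries of Mlxipl lay below all 3 DMI libraries, and so did those of Nr1h3, which makes 2 of 9 members without overlap, where 7.35% of all genes were lower without overlap. Mlxipl averaged 0.621 ± 0.446 CPM (SD, n = 3), a log2 fold change of -3.14 from DMI (95% interval -4.73 to -1.56, adjusted p = 0.0618 by edgeR). Nr1h3 averaged 25.1 ± 13.4 CPM, a log2 fold change of -1.92 (95% interval -3.02 to -0.82, adjusted p = 0.0803 by edgeR). In the authors' deposited table both pass 0.05, Mlxipl at an adjusted p of 0.000328 and Nr1h3 at 0.00488, where 1.51% of the genes in that table do. For Srebf1, at 86.0 ± 17.1 CPM, the log2 fold change was -0.74 (95% interval -1.26 to -0.21, adjusted p = 0.123 by edgeR). Insig1, at 217 ± 28.8 CPM, had one of -0.62 (95% interval -1.10 to -0.14, adjusted p = 0.145 by edgeR), and Mlx, at 36.5 ± 2.61 CPM, one of -0.47 (95% interval -0.88 to -0.05, adjusted p = 0.192 by edgeR). Whether these genes passed depended on the model, as given above, and on the third DMI library. Without it 5 members were called lower (Mlxipl, Nr1h3, Srebf1, Mlx and Insig1), where 17.4% of all genes were called. Without the third library of every induced group 7 members were called, 6 lower and Scap higher, where 33.4% of all genes were called. Over all alternatives the adjusted p in quercetin against DMI ran from 4.27e-10 to 0.264 for Mlxipl, from 1.12e-15 to 0.344 for Nr1h3 and from 1.40e-05 to 0.447 for Srebf1. The lowest values of Mlxipl and Nr1h3 came from the fit with no filter, where 1737 of 29036 genes were called.

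Between the compounds, quercetin against luteolin in induced cells, all 9 members were compared and 0 were called by edgeR, as was no other gene (0% of genes tested). No member had an unadjusted p below 0.05, where 8.93% of all genes had one, and DESeq2 called 0 of 9 (0.00344% of all genes). For Nr1h3 the log2 difference, quercetin minus luteolin, was -0.94 (95% interval -2.02 to 0.14, adjusted p = 0.565 by edgeR), and for Srebf1 it was -0.48 (95% interval -1.002 to 0.05, adjusted p = 0.56 by edgeR). Mlxipl differed by -1.36 (95% interval -2.99 to 0.28, adjusted p = 0.573 by edgeR), and its quercetin libraries all lay below its luteolin libraries, as for 5.2% of all genes. The nearest were 0.982 CPM (18 counts) in quercetin 1 and 0.998 CPM (15 counts) in luteolin 3, so the raw counts overlapped. Insig1 was nearly level between the compounds, at a log2 difference of -0.07 (95% interval -0.55 to 0.41), and so was Scap at 0.05 (95% interval -0.19 to 0.29). Without the third induced libraries 3 members were called lower with quercetin than with luteolin, where 13.8% of all genes were called: Nr1h3 (adjusted p = 0.00045), Srebf1 (adjusted p = 0.00537) and Mlx (adjusted p = 0.0494).

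The induced groups with a compound were also set against untreated cells, sharing the untreated libraries with the DMI comparison. With luteolin 4 members were called higher and 0 lower, where 10.5% of all genes were called higher and 8.74% lower. Nr1h3 rose by a log2 fold change of 3.64 (adjusted p = 0.00142 by edgeR), Srebf1 by 1.09 (adjusted p = 0.00977) and Mlx by 0.65 (adjusted p = 0.034), and Mlxipl was at least 26.7-fold higher (adjusted p = 0.00796). Srebf1 was no longer called without the second luteolin library (adjusted p = 0.051). Mlx was no longer called without any 1 of the untreated libraries (adjusted p = 0.0836, 0.119 and 0.0723 without replicate 1, 2 and 3) or without the first or second luteolin library (0.114 and 0.13). Insig1, at a log2 fold change of 0.61, missed the threshold (adjusted p = 0.0706 by edgeR). It passed with library totals (0.0308), with no filter (0.00198), in the 6 libraries of the pair (0.0196, or 0.0322 with the replicate block), with DESeq2 (0.0293), and without the third untreated (0.0291), the third DMI (0.0268) or the third quercetin library (0.0326). In the authors' deposited table the adjusted p of Insig1 is 0.0017. With quercetin 2 members were called higher, where 4.79% of all genes were: Nr1h3 at a log2 fold change of 2.70 (adjusted p = 0.0119) and Mlxipl, at least 10.2-fold higher (adjusted p = 0.0496). That count rested on single libraries. It was 0 without the first or second untreated library or the second quercetin library, 4 without the third DMI or the third quercetin library, and 1 without any of the other 7. Without the third induced libraries 7 members were called in luteolin against untreated, 6 higher and 1 lower (44.9% of all genes), and 8 in quercetin against untreated, 7 higher and 1 lower (40.4% of all genes).

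Ratios between related regulators within each library do not depend on how libraries are scaled. In counts per kilobase, Nr1h3 to Nr1h2 stood at 0.083, 0.077 and 0.073 in untreated libraries, 2.07, 2.46 and 0.686 with DMI, 1.06, 1.29 and 0.479 with luteolin, and 0.536, 0.578 and 0.255 with quercetin. LXR-alpha transcripts were far below LXR-beta transcripts per length in untreated libraries, above them in the first and second DMI libraries and the first and second luteolin libraries, and below them in all quercetin libraries. The log2 ratio was higher with DMI than in untreated cells by 4.29 (exact permutation p = 0.1) and lower with quercetin than with DMI by 1.82 (-1.82 in quercetin minus DMI, exact permutation p = 0.1), in both cases without overlap. Srebf1 to Srebf2 stood at 0.233, 0.260 and 0.207 in untreated libraries, 1.12, 1.22 and 0.405 with DMI, 0.790, 0.934 and 0.423 with luteolin, and 0.524, 0.604 and 0.301 with quercetin. Only the first and second DMI libraries had more Srebf1 than Srebf2 per length, and the log2 ratio was 1.82 higher with DMI than in untreated cells, without overlap (exact permutation p = 0.1).

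Insig1 to Insig2 is the pair in which both compounds separated from DMI without overlap. The ratio per kilobase was 3.28, 2.91 and 5.19 in untreated libraries, 6.63, 6.71 and 5.60 with DMI, 4.72, 4.52 and 5.03 with luteolin, and 4.66, 4.13 and 4.50 with quercetin. Even the third DMI library, which overlapped the compound groups in the CPM of Insig1, lay above all 6 compound libraries in this ratio. The mean log2 ratio differed from DMI by -0.41 with luteolin and by -0.51 with quercetin, each with p = 0.1 by an exact two-sided permutation test, the smallest p that 3 against 3 libraries allow (0.214 adjusted over the 15 ratio tests). The DMI libraries also lay above the untreated ones, by 0.78 in log2 ratio (exact permutation p = 0.1). Mlxipl to Mlx was 0.049, 0.046 and 0.016 with DMI, 0.011, 0.019 and 0.0098 with luteolin, and 0.010, 0.0069 and 0.0013 with quercetin, so ChREBP transcripts were far fewer than those of its partner in every library.

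**Figure D3:**
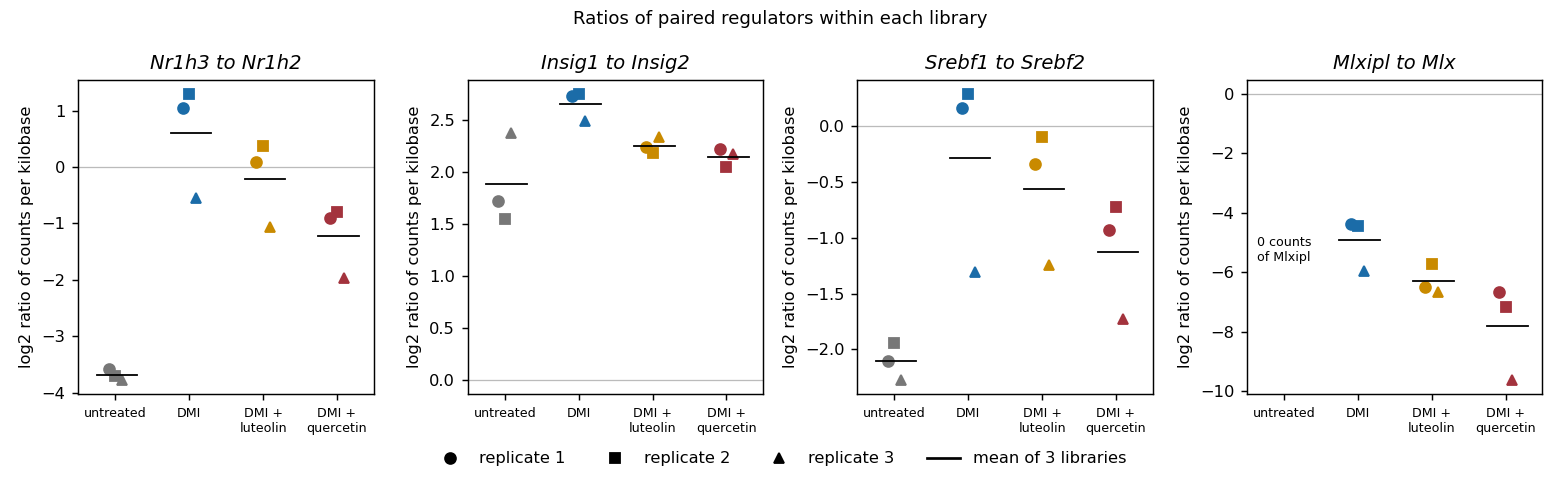
Log2 ratio of counts per kilobase (vertical axis) of 4 pairs of related regulators in each library, with points for libraries and lines for the mean of 3. In the Insig1 to Insig2 panel the 3 DMI libraries, at ratios of 5.60 to 6.71, lie above all 6 libraries with luteolin or quercetin, at 4.13 to 5.03.

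Levels per length, in the FPKM the authors deposited, set the order among the 9 genes. Insig1 was the highest in every group, with a mean of 46.8 FPKM in untreated cells, 107.7 with DMI, 73.6 with luteolin and 69.5 with quercetin, although its untreated libraries overlapped those of Srebf2 (42.0 FPKM). Mlxipl was the lowest in every group, at 0 FPKM in untreated cells and 1.02 with DMI. Nr1h3 changed place most: it was next to last in untreated cells (1.497 FPKM), second with DMI (37.7 FPKM, overlapping Srebf2 at 30.2), below Nr1h2 with luteolin (19.1 FPKM, overlapping it) and next to last again with quercetin (9.87 FPKM, overlapping Srebf1 at 15.1). With DMI the neighbours in rank from Nr1h3 down to Nr1h2 all overlapped, so their order there is not settled by these libraries.

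Known target genes and cofactors of these regulators were taken as 6 lists. Of 21 tested sterol synthesis and uptake genes 7 rose with DMI and 0 fell (median log2 fold change 0.41), against 14.7% and 12.4% of all genes. Sqle, the squalene epoxidase, rose from 155 to 256 CPM (adjusted p = 0.0237 by edgeR), while Hmgcs1, which makes HMG-CoA, stood at 172 and 261 CPM (adjusted p = 0.0829). Msmo1, a later enzyme of the pathway, stood at 185 and 191 CPM (adjusted p = 0.929). With luteolin 0 of 21 were called, all 21 had a log2 fold change below 0 (53.2% of all genes) and the median was -0.27. With quercetin 1 of 21 fell and 0 rose, where 0.848% of all genes fell, and the median was -0.28.

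Among 16 fatty acid synthesis genes 11 rose with DMI and 1, the desaturase gene Fads1, fell from 331 to 236 CPM (median 0.84). Of all genes 14.7% were called higher and 12.4% lower. Scd1, the stearoyl-CoA desaturase, went from 152 to 10368 CPM and Fasn, the fatty acid synthase, from 586.2 to 2244 CPM. Scd2 rose from 1771 to 3170 CPM, and Acly, which makes cytosolic acetyl-CoA, stood at 371 and 426 CPM (adjusted p = 0.297 by edgeR). With luteolin 0 of 16 were called (median -0.56), with Scd1 at 2949 CPM (adjusted p = 0.364) and Fasn at 1127 CPM (adjusted p = 0.509). With quercetin 4 fell and 0 rose (median -0.88), where 0.848% of all genes fell: Scd1 to 1659 CPM (adjusted p = 0.0273), Fasn to 726.2 CPM (adjusted p = 0.042), Pnpla3, a triglyceride-associated acyltransferase and lipase gene, from 31.8 to 3.19 CPM (adjusted p = 0.0408), and Acaca, the acetyl-CoA carboxylase, from 282 to 139 CPM (adjusted p = 0.0484). Scd2 and Acly, at 1872 and 318 CPM, were not called.

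Of 12 listed LXR targets 9 were tested, and 5 rose and 2 fell with DMI (median 1.64), against 14.7% and 12.4% of all genes. Abca1, the cholesterol efflux pump, rose from 95.9 to 530 CPM, Lpcat3, a phospholipid remodelling enzyme, from 108 to 337 CPM, and the fatty acid transporter gene Cd36 from 1.35 to 1387 CPM. Mylip, the ligase that degrades the LDL receptor, stood at 114 and 131 CPM (adjusted p = 0.199 by edgeR), and the genes that fell were Pltp, which encodes the phospholipid transfer protein (149.9 to 85.4 CPM), and Arl4c (28.6 to 12.7 CPM). The others that rose were the sterol exporter gene Abcg1 (1.23 to 37.2 CPM) and the apolipoprotein gene Apoe (6.43 to 62.1 CPM). With luteolin 0 of 9 were called (median -0.53). With quercetin Abca1 fell to 175 CPM (adjusted p = 0.042 by edgeR), where 0.848% of all genes fell. The 8 others were not called, among them Lpcat3 at 179 CPM (adjusted p = 0.0916) and Cd36 at 422 CPM (adjusted p = 0.122). The median was -0.92.

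Of 9 glucose-responsive ChREBP targets 5 were tested, and 2 rose and 0 fell with DMI (median 0.42), against 14.7% and 12.4% of all genes. Txnip, a thioredoxin-binding arrestin, rose from 215 to 342 CPM with DMI (adjusted p = 0.00638 by edgeR), and Gpd1, which makes glycerol 3-phosphate, from 2.20 to 2375 CPM (adjusted p = 0.000126). Arrdc4 and Khk, the ketohexokinase gene, stood at 29.2 and 39.1 CPM (adjusted p = 0.0577) and at 11.2 and 13.8 CPM (adjusted p = 0.266). None of the 5 was called with luteolin (median -0.32) or quercetin (median -0.38), and Gpd1 stood at 1101 and 505.7 CPM there (adjusted p = 0.908 and 0.108).

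Genes that process or turn over SREBP, SCAP and INSIG made up another list. Of 11 tested 1 rose and 1 fell with DMI (median -0.04), against 14.7% and 12.4% of all genes. Rnf145, a ligase of the endoplasmic reticulum, rose from 95.6 to 121 CPM (adjusted p = 0.0249 by edgeR), and Paqr3, a Golgi anchor of SCAP, fell from 20.3 to 5.22 CPM (adjusted p = 0.00066). Mbtps1, the site-1 protease that cuts SREBP, stood at 262 and 221 CPM (adjusted p = 0.157). Vcp, which extracts ubiquitin-tagged proteins from the membrane, stood at 220 and 286 CPM (adjusted p = 0.0559). None of the 11 was called with either compound (medians -0.15 and 0.07). Of 15 DNA-binding partners and corepressors 3 rose and 3 fell with DMI (median 0.07), beside the same 14.7% and 12.4% of all genes, with the LXR partner gene Rxra up from 154 to 237 CPM (adjusted p = 0.0297). Among the others called were Rxrg (0 to 5.52 CPM) and Mxd1 (15.4 to 39.6 CPM), which rose, and Mnt (68.97 to 43.9 CPM) and Nfya (70.5 to 54.5 CPM), which fell. Fads1, Pltp, Arl4c, Abcg1, Apoe, Paqr3, Rxrg, Mxd1, Mnt and Nfya are named because they were called, and so were chosen after their values were seen. Mxd4, a MAX partner, stood at 328 and 388 CPM (adjusted p = 0.216) and the corepressor gene Ncor1 at 287 and 273 CPM (adjusted p = 0.781). None of the 15 was called with luteolin or quercetin (medians -0.05 and -0.16).

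Without the third induced libraries, an alternative chosen for the lists after seeing the data, more list genes were called. With luteolin 11 of 16 fatty acid synthesis genes, 3 of 21 sterol genes and 5 of 9 LXR targets were then called, 4 of those 5 lower, where 10.4% of all genes were. So were 3 of 5 glucose-responsive genes, 1 of 11 turnover genes and 1 of 15 partners. With quercetin the counts were 13 of 16, 12 of 21 and 7 of 9 (2 of those 7 higher). In the other lists they were 3 of 5, 4 of 11 and 7 of 15 (3 of those 7 higher), where 33.4% of all genes were called. For DMI against untreated the counts were 15 of 16 (3 lower), 16 of 21 (1 lower) and 8 of 9 (2 lower). In the other lists they were 4 of 5 (0 lower), 6 of 11 (3 lower) and 10 of 15 (4 lower). Of all genes 52.8% were called in that comparison.

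**Figure D4:**
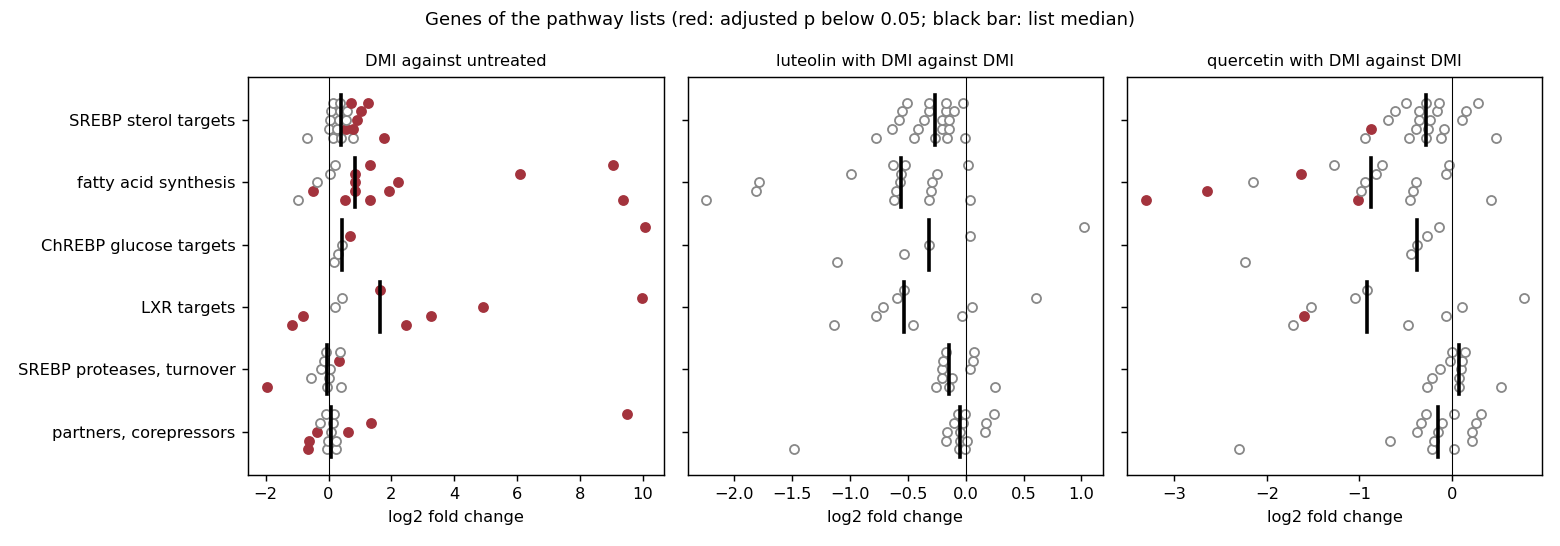
Log2 fold changes (horizontal axis) of the tested genes of 6 lists of targets and cofactors in 3 comparisons; each circle is a gene, red where the adjusted p is below 0.05, and the black bar is the list median. In the quercetin panel 6 genes are red, all to the left of 0. Values near 9 or 10 in the first panel come from genes low in untreated cells, such as Gpd1 at 2.20 and Cd36 at 1.35 CPM. For a gene almost absent there, such as Pnpla3 at 0.04 CPM, the value depends on the prior count of the fit.

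For each member the most similar protein-coding genes at or above 5 CPM were found from log2 CPM over the 12 libraries, each gene centred on its own mean, by the root mean square difference. Closest to Nr1h3 were Rarres2 (0.17), which encodes the adipokine chemerin, Aoc3 (0.18), an amine oxidase of the adipocyte surface, and Cebpa (0.18), an adipogenic transcription factor, where the median over 10196 genes was 1.79. Closest to Insig1 was the sterol synthesis gene Nsdhl (0.12), followed by Epb41l5 and Gphn (both 0.16), where the median was 0.54. For Srebf1 the nearest were Lonp2 (0.07), Uqcrc1 and Cd151 (both 0.08), for Mlxipl Cmbl (0.33), Gpt (0.36) and C3 (0.39), and for Mlx Stard7 (0.07), Zadh2 and Ctps2 (both 0.08). Srebf2, which ran the other way, was nearest to Ptgfrn (0.06), Lmnb1 (0.08) and Slc39a11 (0.10). The remaining members varied little about their own mean (0.10 for Scap, 0.17 for Nr1h2 and 0.23 for Insig2, as root mean square), so small distances there come with flat profiles. Their nearest genes were Zfp146 (0.04), Slc39a13 (0.07) and Rnf4 (0.08), where the medians over all genes were 0.26, 0.31 and 0.34.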

How the data were processed

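Raw counts of 12 libraries by gene were deposited by the authors. The tools and build named, per the submitters' processing notes, are CASAVA 1.8.2, featureCounts 1.5.0-p3 and mm9. Since 98.3% of the table's gene positions equal those of GENCODE M21, the GRCm38 build is given with coordinates. The authors also deposited FPKM, and log2 fold changes and p-values of their own comparisons, without a stated method. Whether counting used strand is not stated in these sources, so reads of overlapping antisense genes cannot be told apart.

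Counts were fitted with edgeR 4.0.16 in R 4.3.3: genes kept by filterByExpr (14855), TMM scaling, 1 term per group over 12 libraries, the quasi-likelihood test and Benjamini-Hochberg adjustment over all genes, called at 0.05, after a check on simulated counts. Standard errors and 95% intervals derive from the F statistic. DESeq2 1.42.0, other scalings, no filter, 6 libraries, replicate blocks and leaving out libraries were alternatives. Depth (14522182 to 19436796 counts) limits Mlxipl most, at 0 to 124 counts. Luteolin and DMI libraries of the same number deviated together (correlations 0.261, 0.337 and 0.59). Other-numbered ones did so as strongly (luteolin 2 with DMI 1 0.367, luteolin 1 with DMI 2 0.226), so the values set the third libraries apart rather than pair the first and second, and the labels do not say what a number marks. The fit reported paired no comparison, and the replicate number as a block was an alternative. Promoter sequences are RefSeq's on GRCm38.p6, and all 9 members matched by symbol. The members and lists were chosen with earlier results of these data known. All 9 members were named, with the 4 most abundant genes of each list, every list gene called with a compound against DMI, and the 3 most similar protein-coding genes at or above 5 CPM; some list genes that this rule names are not reported here. Osteoblast and chondrocyte markers reached at most 1.01 CPM in sum, and macrophage, endothelial and epithelial markers at most 2.42 CPM; of the skeletal muscle markers Des alone had counts.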

Additional observations from a re-analysis of the deposited data

How the results depend on the processing

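The 5 members called in DMI against untreated were called under every alternative run. The counts ran from 5 to 7 when single libraries were left out. They reached 8 without the third induced libraries, where 52.8% of all genes were called. For luteolin against DMI the count of 0 was 0 with any 1 library left out and 2 with no filter (363 of 29036 genes called). It was 3 with the replicate block in the 6 libraries of the pair (6.58% of all genes) and 5 without the third induced libraries (10.4%). For quercetin against DMI the count of 0 became 4 with no filter (1737 of 29036 genes called) and 3 with DESeq2 (6.40% of all genes). It was 3 with the replicate block over 12 libraries (9.39%) and 2 with the replicate block in 6 libraries (706 of 14116 genes). Without the third induced libraries it was 7 (33.4% of all genes). When single libraries were left out it ran from 0 to 5, the 5 being without the third DMI library (17.4% of all genes). Between the compounds the count was 1 with no filter (450 of 29036 genes called) and 3 without the third induced libraries (13.8% of all genes). It was 0 with any 1 library left out. For luteolin against untreated it was 7 with the replicate block in 6 libraries, where 5760 of 14124 genes were called. Without the third induced libraries it was also 7 (44.9% of all genes), and it was 2 to 5 with 1 library left out. For quercetin against untreated it was 4 with no filter (2357 of 29036 genes called) and 8 without the third induced libraries (40.4% of all genes). It was 1 in 6 libraries alone (1319 of 14006 genes called) and 1 with the replicate block there (1104 of 14006). With 1 library left out it ran from 0 to 4. The causes were not tested. The replicate block over 12 libraries changed no member's call in luteolin against DMI. Against untreated it called Srebf2 lower with DMI (adjusted p = 0.00484 by edgeR) and with luteolin (0.0122), and Srebf1 higher with quercetin (0.0452). All 105 alternative ratio values stayed within the larger group SD of the value reported, but this was bound to hold. Gene length cancels in the difference, and leaving out 1 of 3 libraries moves a group mean by less than its SD. It therefore does not show how stable the ratios are. The log2 ratio of Srebf1 to Srebf2 in luteolin against DMI, where the groups overlap, was -0.28 in the main setting. It ran from -0.79 to 0.063 with 1 library left out, so its sign was not kept.

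Signs of the members' fitted fold changes changed only for differences near 0 that were not called in the fit reported, given here as log2. Nr1h2 was 0.0065 in luteolin against DMI with library totals and 0.13 in quercetin against DMI without the third induced libraries. Between the compounds it was -0.0085 with RLE scaling, -0.016 with library totals, -0.00016 with no filter, -0.0074 with the replicate block over 12 libraries, -0.0057 in 6 libraries, -0.032 with the replicate block there and -0.0074 with DESeq2. Insig2 between the compounds was -0.0087 with library totals and -0.21 without the third induced libraries. Scap in quercetin against untreated was 0.013 with library totals, 0.014 with no filter and 0.061 without the third induced libraries. With 1 library left out, luteolin against DMI ran from -0.14 to 0.28 for Srebf2 and from -0.25 to 0.030 for Insig2, and quercetin against DMI from -0.19 to 0.14 for Nr1h2 and from -0.22 to 0.0065 for Insig2. Between the compounds Srebf2 ran from -0.048 to 0.29, Nr1h2 from -0.13 to 0.19, Insig1 from -0.19 to 0.022 and Insig2 from -0.12 to 0.16. In quercetin against untreated Nr1h2 ran from -0.072 to 0.31 and Scap from -0.10 to 0.062. Over all genes the calls in luteolin against DMI were 3 in the fit reported, 363 with no filter, 48 with DESeq2, 25 with the replicate block over 12 libraries, 929 with the replicate block in 6 libraries and 0 in 6 libraries without it. In quercetin against DMI they were 150, 1737, 958, 1395, 706 and 0 in the same order, with 59 for library totals.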
